A study of Mus musculus with 18 samples.

Results

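The genes described here make, modify and release the mucus of intestinal goblet cells. They were chosen by symbol, with earlier results of these data known, by a rule that has no threshold on a measured value: 32 of the 35976 gene symbols in the table, made up of 8 genes grouped as secreted mucus proteins (with the transmembrane tryptase Tpsg1 among them), 5 genes of folding and stress in the endoplasmic reticulum, 7 enzymes of mucin glycosylation, 7 genes of the granule, secretion and membrane, and 5 transcription factors. All 32 were found. A gene was tested where it reached 1 TPM (a transcript level corrected for gene length and scaled to the same library total) in at least 6 libraries, and 31 of the 32 did. The exception was the sialyltransferase St6galnac1, which was listed at 0 in 16 libraries and at 0.04 and 0.037 TPM in sham replicates 4 and 5.

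RNA sequencing of mouse colon was carried out on day 2, in 3 groups of 6 samples. The first group had TNBS-induced colitis and received ISM012-042, which the series title describes as an inhibitor of PHD restricted to the gut. PHD enzymes are prolyl hydroxylases, which in normal oxygen tag hypoxia-inducible factor for destruction. The second had TNBS colitis and received vehicle, and the third was sham, without colitis. TNBS is a hapten that causes acute inflammation of the colon wall. Strain, sex, age, dose, the vehicle and the stretch of colon taken were not given in the sources used here, and nothing states that the samples of a group came from separate animals, so p-values speak only for the spread among these samples.

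Goblet cells package the gel-forming mucin Muc2 into granules after folding it in the endoplasmic reticulum and coating it with O-linked sugars in the Golgi. Released Muc2 expands into a layered gel to which the cells add Fcgbp, Clca1, Zg16 and Tff3, and in the colon the inner layer of this gel keeps bacteria from the epithelium. Atoh1 commits crypt cells to the secretory lineage, and Spdef, Gfi1, Foxa1 and Foxa3 act later in the maturation of goblet cells. Whole tissue was sequenced, so fewer goblet cells and less RNA per goblet cell cannot be told apart in any value below.

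The promoters of 3 members are shown because their genes took different positions in colitis: Muc2, the structural mucin, Fcgbp, a mucus protein with lower values in most vehicle libraries, and Spdef, a transcription factor with higher ones in most. Each is the RefSeq window of GRCm38.p6 (the assembly of mm10) from 250 bases before to 50 bases after an annotated start, 5′ to 3′ on the gene's own strand. The Muc2 window is chr7:141690090-141690389 on the plus strand, that of Fcgbp is chr7:28070986-28071285 on the plus strand, and that of Spdef is chr17:27728902-27729201 on the minus strand. Capitals mark CAGCTG in Muc2 and Fcgbp, an E-box of the kind that basic helix-loop-helix factors such as Atoh1 bind. In Muc2 they also mark TATAAA, the letters of the TATA box, at position -174 from the start. Whether this match serves as a core promoter element was not tested. In Spdef they mark ACGTG, the core of the element bound by hypoxia-inducible factor, and its less usual variant GCGTG.
Muc2: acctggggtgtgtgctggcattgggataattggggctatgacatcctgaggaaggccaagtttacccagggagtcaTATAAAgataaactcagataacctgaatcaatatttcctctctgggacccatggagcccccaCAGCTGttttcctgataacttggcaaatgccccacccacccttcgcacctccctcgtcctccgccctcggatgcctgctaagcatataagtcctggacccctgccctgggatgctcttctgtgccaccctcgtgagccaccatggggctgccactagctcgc
Fcgbp: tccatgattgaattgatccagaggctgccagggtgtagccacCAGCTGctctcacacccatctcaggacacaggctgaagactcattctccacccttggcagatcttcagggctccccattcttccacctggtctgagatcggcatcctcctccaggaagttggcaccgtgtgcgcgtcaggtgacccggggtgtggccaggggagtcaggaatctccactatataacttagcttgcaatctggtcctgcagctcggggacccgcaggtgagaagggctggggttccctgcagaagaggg
Spdef: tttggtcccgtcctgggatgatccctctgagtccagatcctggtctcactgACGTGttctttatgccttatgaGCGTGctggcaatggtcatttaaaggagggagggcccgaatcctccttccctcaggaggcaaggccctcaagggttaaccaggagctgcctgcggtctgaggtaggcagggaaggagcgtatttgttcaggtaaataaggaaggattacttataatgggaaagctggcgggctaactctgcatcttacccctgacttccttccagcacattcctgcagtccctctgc

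The motifs were searched on both strands, except TATAAA, which was searched on the gene's strand. The RefSeq table held 22 windows for 16 of the 32 members. The hypoxia-inducible factor core, in one form or the other, was in 5 of the 22 windows (Atoh1, Creb3l4, Foxa3, Galnt3 and Spdef), while 43.8% of 32851 mouse promoter windows of this length hold it. CAGCTG was in 3 of the 22 (Muc2, Fcgbp and Slc12a8) against 16.3% of all, at position -112 from the start in Muc2 and -208 in Fcgbp. TATAAA was in 2 of the 22 (Muc2 and Foxa3) against 8.32% of all, at -174 in Muc2 and at -36 in Foxa3. TGTTTAC, a forkhead motif of the FOXA kind, was in the Foxa1 window (3.65% of all). TGACGTG, the core of the unfolded protein response element, was in the Spdef window at -201 (2.01% of all) and overlaps the ACGTG at -199. CAAAGTCCA, a motif of the HNF4 kind, was in 0 of the 22 windows (0.475% of all). A match is a string of letters and no measure of binding, and a missing one says only that these letters are not in the window.

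Library totals were 1000000 TPM each, so the sequencing depth and any counting error are unknown, and 12681 to 14632 genes per library reached 1 TPM. The mitochondrial genome took 20.1 to 39.8% of the total in ISM012-042 libraries, 22.4 to 57.8% in vehicle libraries and 29.4 to 42.6% in sham libraries, and a larger share lowers every other TPM value. Hoxb13, a gene of the distal colon, ran from 0.329 to 219 TPM with ISM012-042, from 1.52 to 179 TPM with vehicle and from 9.05 to 288 TPM in sham. Of the neutrophil markers 3 of 7 rose in vehicle relative to sham, S100a8 by 6.63 ± 1.20 on the log2 scale (SE); the 7 summed to 41.0 to 6687 TPM with ISM012-042, 167 to 24881 TPM with vehicle and 5.97 to 25.9 TPM in sham. All differences below are of log2(TPM + 1), which understates changes of low genes.

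Goblet cell genes were abundant in the tissue. Agr2 and 7 of the 8 genes grouped as secreted mucus proteins, all but Tpsg1, were the most abundant members. Over all 18 libraries Zg16, a lectin-like protein that binds Gram-positive bacteria, averaged 9235 TPM, Clca1, a metalloprotease that cuts Muc2, 4029 TPM, Agr2, a disulfide isomerase that folds Muc2, 2748 TPM, and Tff3, the trefoil peptide of the intestine, 2709 TPM. Muc2 itself averaged 1387 TPM, and the lowest tested members were the transcription factor Gfi1 at 8.04 TPM, the core-3 enzyme B3gnt6 at 11.6 TPM and Fer1l6, a ferlin of goblet cells, at 24.3 TPM. The 32 genes together made up 1.59 to 3.75% of all TPM with ISM012-042 (median 2.20%), 0.982 to 3.66% with vehicle (2.13%) and 2.26 to 3.79% in sham (3.29%). Zg16 alone was 21.4 to 48.0% of that sum.

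**Figure D1:**
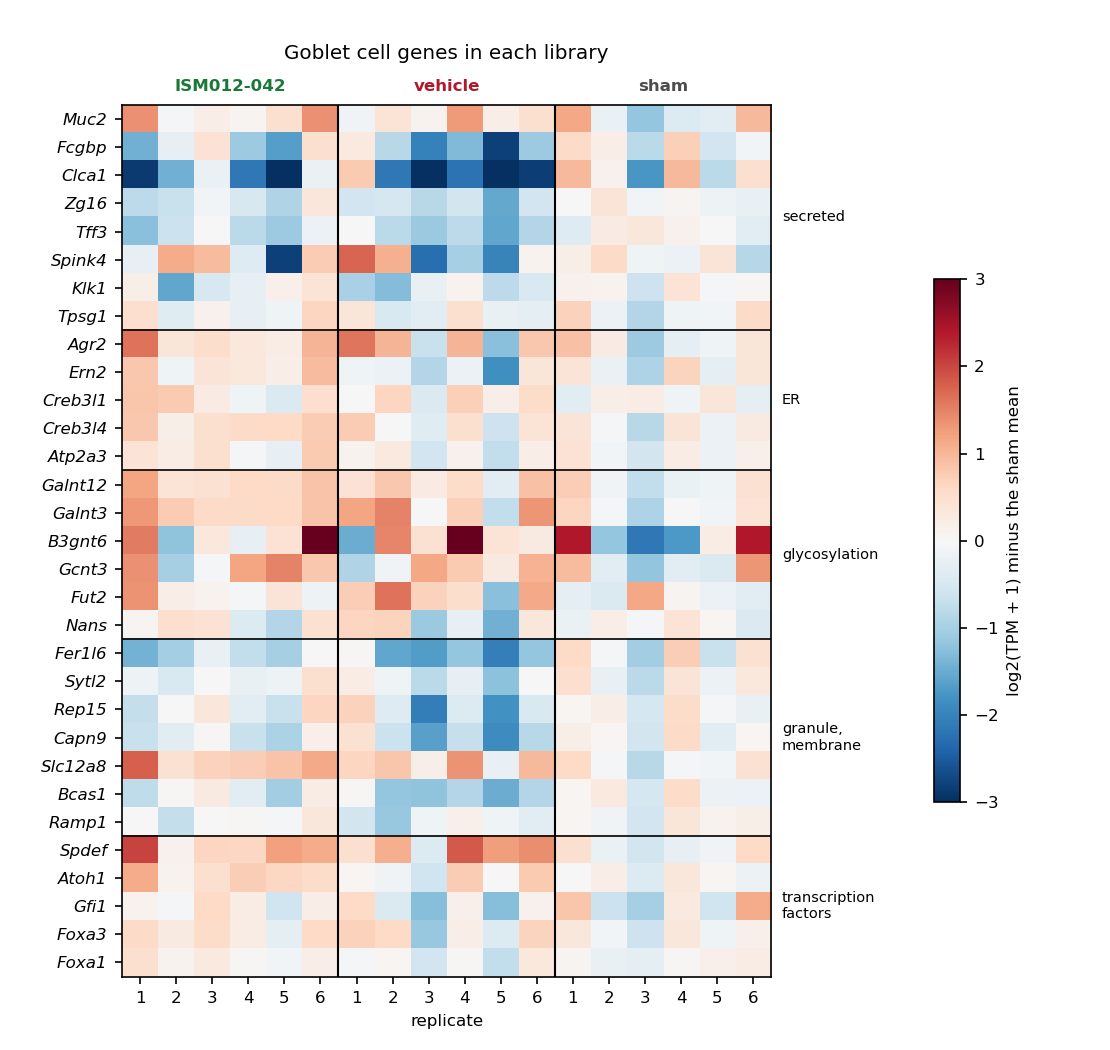
Levels of the 31 tested goblet cell genes (rows, in blocks by role) in the 18 libraries (columns), as log2(TPM + 1) minus the mean of the 6 sham libraries, with red higher and blue lower and the colour scale ending at -3 and 3. Fcgbp, Clca1, Tff3 and Fer1l6 are blue in vehicle replicates 2 to 6 and near or above the sham mean in replicate 1, while Spdef is red in most ISM012-042 and vehicle libraries.

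The first question is how TNBS colitis alone changed the goblet cell genes. In colitis with vehicle, 3 of 31 members fell: the bacteria-binding Zg16, the trefoil peptide Tff3 and the ferlin Fer1l6. That is 9.68% of the members, against 4.13% of all 14129 genes tested. No member rose at an adjusted p under 0.05, where 0.326% of all genes did. At an unadjusted limma p under 0.05, 2 of 31 members were higher and 8 lower, against 446 and 2108 of all 14129 genes. The median difference of the members was -0.16, against -0.07 for all genes. By role, the mean of log2(TPM + 1) was lower in vehicle than in sham for 7 of 8 secreted proteins and 6 of 7 granule and membrane genes. It was lower for 58.7% of all genes. For 5 of 6 tested glycosylation enzymes it was higher, as it was for 41.3% of all genes. Of these roles 2, 1 and 0 members passed the test.

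Among the secreted proteins, Zg16 (chromosome 7, 127050156 to 127052675) lay between 3997 and 8200 TPM in vehicle libraries, with a median of 7812 TPM, and between 9825 and 15139 TPM in sham libraries, with a median of 11159 TPM. The groups did not overlap, and Zg16 was the only member of which this was true (1.91% of all genes were lower without overlap). It fell by 0.76 ± 0.21 on the log2 scale, 1.69-fold, with a limma adjusted p of 0.0440. Tff3 (chromosome 17, 31125306 to 31129611), which protects and repairs the epithelial surface, ran from 1214 to 3530 TPM in vehicle (median 2004) and from 2723 to 4559 TPM in sham (median 3776). Only vehicle replicate 1, the highest of its group, reached the sham range. Tff3 fell by 0.86 ± 0.24, 1.81-fold, with a limma adjusted p of 0.0491.

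Clca1 (chromosome 3, 145004537 to 145032776) had the widest spread of the secreted proteins. It was 210 TPM in the lowest vehicle library, 1061 TPM at the median and 10252 TPM in replicate 1, against 1778, 7382 and 11635 TPM for the lowest, median and highest sham libraries. The difference was -2.58 ± 0.82, the largest of any member in size, but with a limma adjusted p of 0.0837 it did not pass. Fcgbp (chromosome 7, 28071236 to 28120864), which is bound to the Muc2 gel, was 95.9 to 826 TPM in vehicle (median 291) and 384 to 1098 TPM in sham (median 702), a difference of -1.30 ± 0.47 with a limma adjusted p of 0.136. For both genes 5 of 6 vehicle libraries were below every sham library, and the sixth was replicate 1.

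Muc2 (chromosome 7, 141690340 to 141754691) did not share this pattern. It was 918 to 2424 TPM in vehicle (median 1237) and 443 to 2213 TPM in sham (median 826), with all 6 vehicle libraries above the sham median and 5 of them inside the sham range. The difference was 0.39 ± 0.37, limma adjusted p 0.632. Spink4, a small protease inhibitor of goblet cells, ran from 299 to 4868 TPM in vehicle and from 804 to 2164 TPM in sham, so that the vehicle libraries stood on both sides of the sham range. Klk1, the tissue kallikrein, differed by -0.61 ± 0.29 (limma adjusted p 0.276) and the tryptase Tpsg1 by -0.07 ± 0.25 (0.923). Klk1 has close copies in the mouse genome, and both genes overlap another gene on the opposite strand, as do Zg16, Nans, Bcas1 and Gfi1; whether the counting used strand was not given in the sources used here.

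Among the 7 granule and membrane genes 1 fell. Fer1l6 (chromosome 15, 58510048 to 58665087), of the calcium-sensing ferlin family of membrane fusion proteins, was 7.23 to 34.2 TPM in vehicle (median 12.4) and 15.6 to 56.0 TPM in sham (median 38.9). It fell by 1.26 ± 0.36, 2.40-fold, with a limma adjusted p of 0.0497. Bcas1, a gene enriched in goblet cells of the gut, was 22.5 to 66.7 TPM in vehicle (median 31.5) and 44.3 to 95.3 TPM in sham (median 62.2). Its difference of -0.93 ± 0.27 lay just outside the threshold (limma adjusted p 0.0528). Capn9, a calpain protease of the digestive tract, was 8.86 to 49.1 TPM in vehicle and 23.9 to 53.0 TPM in sham, a difference of -0.87 ± 0.32 (0.129).

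In Fer1l6, Bcas1 and Capn9, too, 5 of 6 vehicle libraries were below the whole sham range and replicate 1 was not. Rep15, a partner of the vesicle GTPase Rab15, differed by -0.75 ± 0.38, Sytl2, a Rab27 effector that tethers granules, by -0.37 ± 0.25, and Ramp1, the receptor subunit through which goblet cells sense the neuropeptide CGRP, by -0.36 ± 0.21; none passed. Slc12a8 (chromosome 16, 33517328 to 33664138), a membrane transporter reported to carry nicotinamide mononucleotide in mouse gut, went the other way: 23.6 to 73.1 TPM in vehicle (median 47.6) and 15.2 to 42.6 TPM in sham (median 26.8), a difference of 0.63 ± 0.28 with a limma adjusted p of 0.238.

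**Figure D2:**
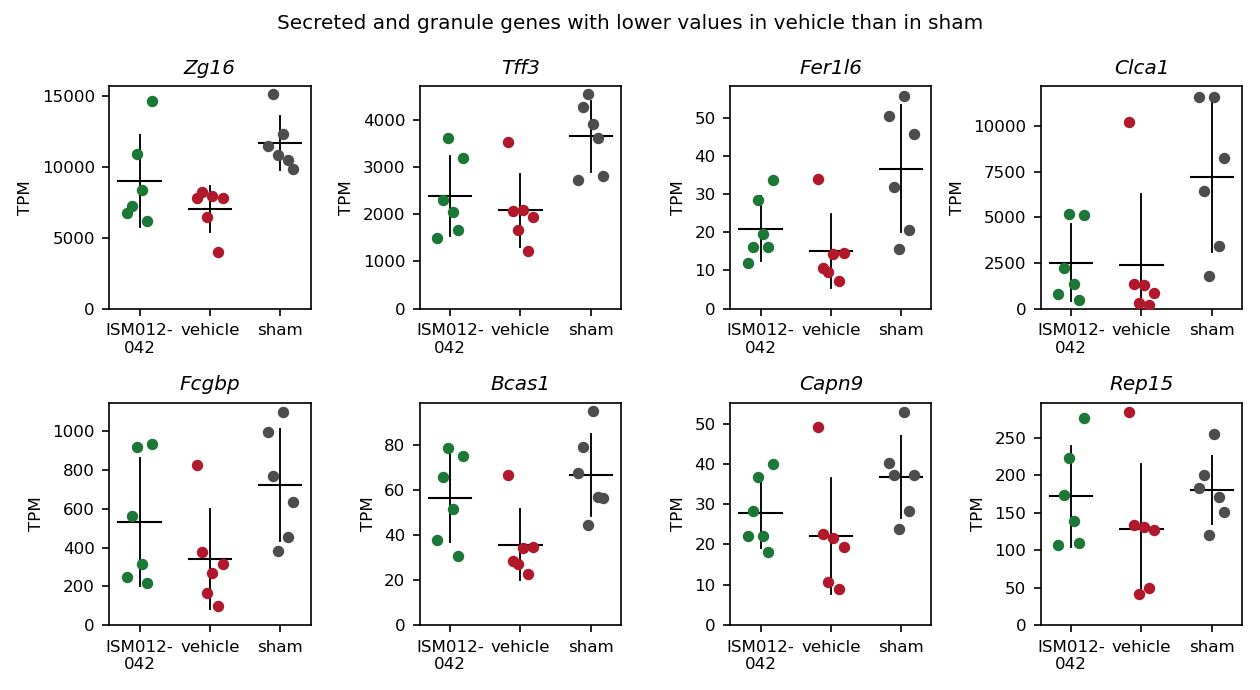
TPM of 8 secreted, granule and membrane genes in each library (points, linear axes from 0), with ISM012-042 on the left, vehicle in the middle and sham on the right of each panel; lines are the mean and the SD (n = 6 per group), drawn down to 0 where it would go below. In Zg16 all 6 vehicle libraries lie under the lowest sham library at 9825 TPM, and in Tff3, Fer1l6, Clca1, Fcgbp, Bcas1 and Capn9 the single high vehicle point is replicate 1.

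Of the enzymes that build the sugar coat of the mucin 6 of 7 were tested, and none passed in either direction. Galnt3 (chromosome 2, 66082766 to 66125056), which starts O-glycans by adding N-acetylgalactosamine, was 12.1 to 59.6 TPM in vehicle (median 41.4) and 10.4 to 33.1 TPM in sham (median 20.3). Of the vehicle libraries 4 were above every sham library and the other 2, replicates 3 and 5, were inside the sham range. The difference was 0.66 ± 0.33 with a limma adjusted p of 0.295. Galnt12, of the same family, differed by 0.43 ± 0.24, Fut2, which adds the terminal fucose of the secretor type, by 0.58 ± 0.39, and Gcnt3, which makes core-2 and core-4 branches, by 0.37 ± 0.48. B3gnt6, the core-3 synthase, varied more within groups than between them, from 0.881 to 42.2 TPM in vehicle and from 0.212 to 27.3 TPM in sham. Nans, which makes sialic acid, differed by -0.19 ± 0.34.

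None of the 5 genes of the endoplasmic reticulum and none of the 5 transcription factors passed. Spdef (chromosome 17, 27714446 to 27731003), the ETS factor of goblet and Paneth cell maturation, was 28.9 to 140 TPM in vehicle (median 88.2) and 26.2 to 58.9 TPM in sham (median 34.7), with 4 of 6 vehicle libraries above every sham library. Galnt3, Slc12a8 and Spdef, 3 of 31 members or 9.68%, had at least 4 vehicle libraries there, as did 7.91% of all genes. The Spdef difference of 0.94 ± 0.35, 1.92-fold, had an unadjusted p of 0.0137 and a limma adjusted p of 0.138. Atoh1 differed by 0.15 ± 0.22, Foxa3 by 0.10 ± 0.28, Foxa1 by -0.16 ± 0.17 and Gfi1 by -0.35 ± 0.38. Agr2 ran from 780 to 5632 TPM in vehicle and from 865 to 3428 TPM in sham, a difference of 0.42 ± 0.44. Ern2, the Ire1 sensor of mucous epithelia, differed by -0.47 ± 0.32, the membrane-bound factors Creb3l1 and Creb3l4 by 0.28 ± 0.24 and 0.11 ± 0.24, and the calcium pump Atp2a3 by -0.10 ± 0.22.

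**Figure D3:**
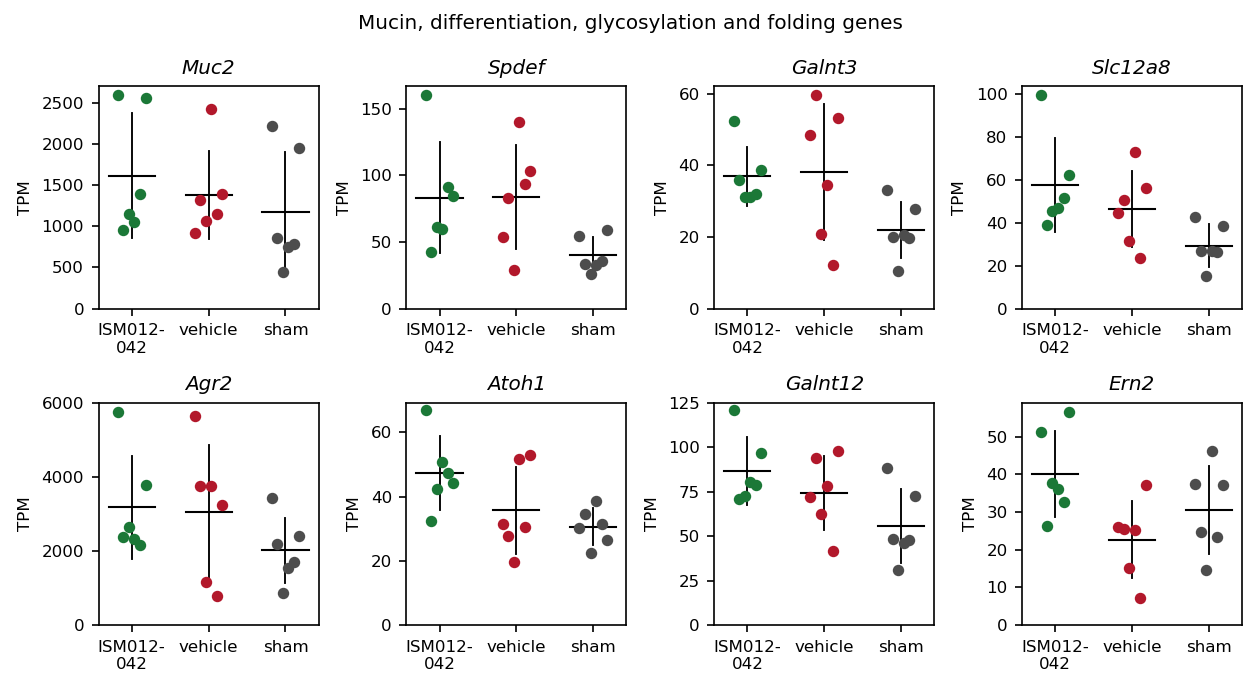
TPM of 8 mucin, transcription factor, glycosylation, membrane and folding genes in each library (points, linear axes from 0), with ISM012-042 on the left, vehicle in the middle and sham on the right of each panel; lines are the mean and the SD (n = 6 per group). Spdef, Galnt3 and Slc12a8 each have 4 vehicle libraries above every sham library, and no gene shown passed the test in any comparison.

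Vehicle replicate 1 stood apart from its group in 6 secreted and granule genes. Counting members with at least 5 of 6 vehicle libraries below the lowest sham library gave 7 of 31, or 22.6%. Of all genes 6.39% had this. In 6 of these 7 members the exception was replicate 1, and Zg16 had none. The cutoff of 5 of 6 was not planned and follows the pattern described above, so the share is a description and not a test. The same library had 249 TPM of S100a8, against 0.508 to 9.85 TPM in sham, and 85.2 TPM of the colonocyte water channel Aqp8, against 680 to 1117 TPM in sham. It also had the highest Hoxb13 of its group, 179 TPM. Without replicate 1, 7 members fell at a limma adjusted p under 0.05 (6.27% of all genes), with Clca1 at -3.26 ± 0.70 (0.0103), Fcgbp at -1.62 ± 0.44 (0.0352), Bcas1 at -1.12 ± 0.24 (0.00932) and Capn9 at -1.14 ± 0.27 (0.0155) added. No member rose (0.576% of all genes). Replicate 1 was singled out after its high values in Clca1, Fcgbp, Bcas1 and Capn9 were seen. The added calls are therefore no separate evidence of a fall. The 3 calls also depended on single libraries: leaving out any of vehicle replicates 2 to 6, ISM012-042 replicates 2 or 4, or sham replicates 1, 2, 4, 5 or 6 left 0 or 1 of them.

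Other lists set the goblet cell values in context. Of 9 pan-epithelial genes all 9 were lower in vehicle than in sham and none passed, with a median of -0.35 and Epcam at -0.43 ± 0.19; their summed level was 4719 to 11500 TPM in vehicle and 7871 to 11465 TPM in sham. Of 8 surface colonocyte genes 4 fell, with Aqp8 by 3.86 ± 0.73 and the chloride exchanger Slc26a3 by 2.66 ± 0.46 (limma adjusted p 0.00718 and 0.00500), and Slc20a1 and Car4 by 2.80 ± 0.56 and 1.51 ± 0.24 (0.00899 and 0.00261). Of 10 other goblet cell genes 2 fell and none rose: the transcription factor Klf4 by 0.78 ± 0.18 (0.0170) and Nlrp6, an innate sensor tied to mucus release in mice, by 0.95 ± 0.21 (0.0156). Retnlb, the bactericidal resistin-like protein of goblet cells, was 223 to 3504 TPM in vehicle and 60.8 to 4177 TPM in sham. The membrane mucin Muc3 of colonocytes fell by 1.39 ± 0.27 (0.00809), while Muc13 differed by -0.48 ± 0.23 (0.280).

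Among 20 chaperones and stress genes of the endoplasmic reticulum none passed in vehicle against sham, Hspa5 differing by 0.14 ± 0.41 and Xbp1 by 0.18 ± 0.20, and none of 21 tested further O-glycan and sialic acid enzymes passed. None of 10 tested genes of the Notch pathway and of secretory fate did. Mast cell markers, which bear on the tryptase Tpsg1, summed to 13.8 to 117 TPM with ISM012-042, 5.61 to 211 TPM with vehicle and 4.54 to 21.5 TPM in sham, with Cpa3 at or under 5.92 TPM in every library. T cell and plasma cell lists, which bear on Gfi1 and Atp2a3, had no gene that passed in any comparison, nor did the lists of smooth muscle and of enteric neurons and glia, which bear on Ramp1. No enteroendocrine, tuft or stem cell gene passed in any comparison. Of 7 pancreatic acinar genes only the colipase gene Clps was tested, and it fell in vehicle relative to sham, by 1.42 ± 0.35 (limma adjusted p 0.0253). The part of other cell types in these values was not tested.

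With the pan-epithelial score of each library as a covariate no member was lower at a limma adjusted p under 0.05, where 1.90% of all genes were. Zg16 was then at -0.48 ± 0.20 (0.136), Tff3 at -0.58 ± 0.25 (0.144) and Fer1l6 at -0.81 ± 0.36 (0.155). In that fit Galnt3 was higher by 1.30 ± 0.24 (0.0210) and Agr2 by 1.21 ± 0.35 (0.0495), where 4.30% of all genes were higher. The score is built on TPM values, which a larger mitochondrial share lowers. It was lowest, at 8.45, in vehicle replicate 5, which had the highest mitochondrial share, 57.8%. How far the score reflects epithelial content was not tested. After median-ratio scaling, which moved the median of all genes from -0.07 to 0.03, 6 members were lower (Zg16, Tff3, Fer1l6, Bcas1, Clca1 and Capn9; 6.80% of all genes) and Galnt3 was higher (3.67% of all genes).

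Hoxb13 was followed because goblet cells differ between proximal and distal colon. With group in the model, 8 of 31 members rose with log2 Hoxb13 and 1 fell; this is 25.8% and 3.23%, against 32.9% and 3.21% of all genes, so the members stood no higher than the background. Spink4 had the steepest positive slope, 0.43 ± 0.06 log2 units per log2 unit of Hoxb13 (limma adjusted p 0.000286). Clca1 came next at 0.32 ± 0.12 but did not pass (0.0509). Of those that passed, Fcgbp followed at 0.21 ± 0.06 (0.0211) and Nans at 0.20 ± 0.03 (0.000724). Rep15 was at 0.18 ± 0.05 (0.0158) and Tff3 at 0.13 ± 0.03 (0.00371). Capn9, Bcas1 and Zg16 also rose. Gcnt3 fell, at -0.26 ± 0.06 (0.00494). After median-ratio scaling only Spink4 and Nans kept a positive slope that passed (9.04% of all genes), and 8 members had a negative one, Gcnt3 and Muc2 among them (9.10% of all genes).

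**Figure D4:**
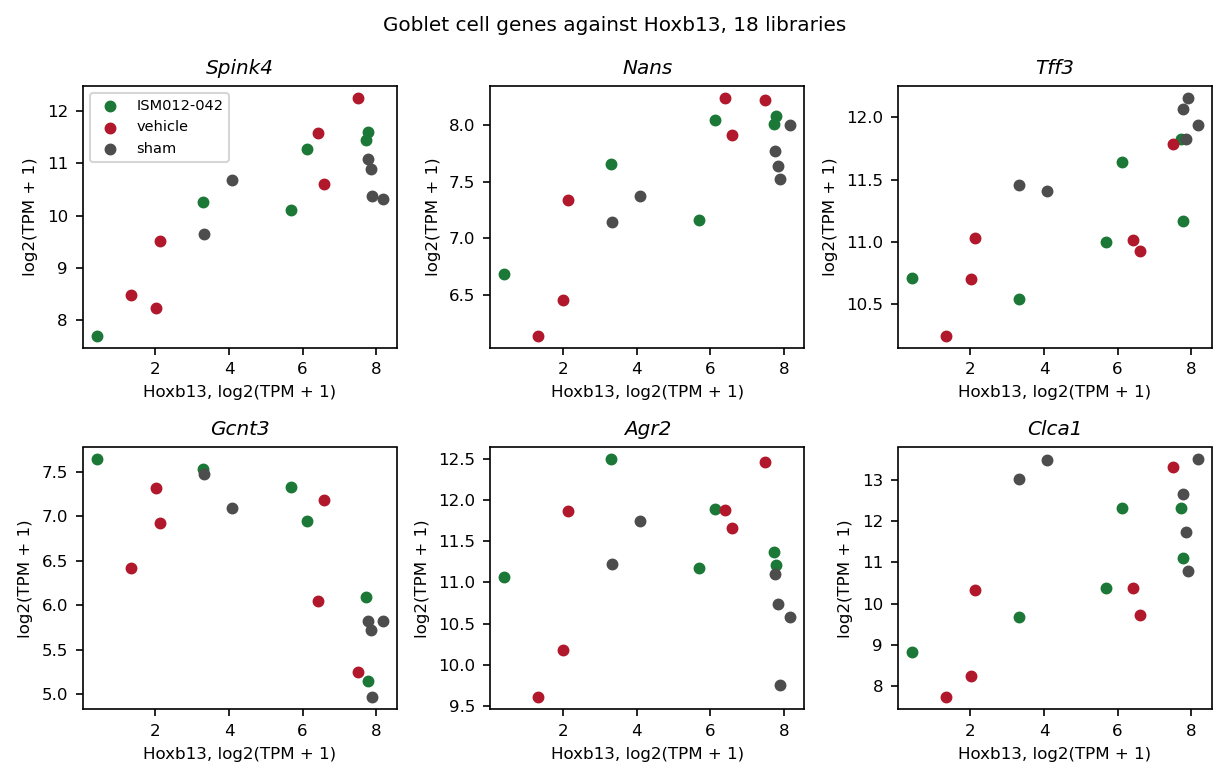
Levels of 6 goblet cell genes (y axis) against Hoxb13 (x axis), both as log2(TPM + 1), in the 18 libraries coloured by group (ISM012-042 green, vehicle red, sham grey). Spink4 and Nans rise with Hoxb13 and Gcnt3 falls in all groups together, while the 2 vehicle libraries lowest in Clca1 and in Agr2, replicates 3 and 5, are low in Hoxb13.

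Hoxb13 did not pass between groups (-2.19 ± 1.40 in vehicle minus sham, limma adjusted p 0.444). It exceeded a log2 value of 5 in 3 of 6 vehicle libraries and 4 of 6 sham libraries, and the 3 vehicle libraries below it (replicates 3, 4 and 5) also had 43.1 to 57.8% of mitochondrial TPM, against 22.4 to 30.0% in the other 3. With Hoxb13 as a covariate none of the 3 calls passed (3.20% of all genes were lower): Zg16 was at -0.57 ± 0.18 (limma adjusted p 0.0818), Tff3 at -0.57 ± 0.17 (0.0659) and Fer1l6 at -1.12 ± 0.38 (0.0941). With Hoxb13 and median-ratio scaling together, a fit added after seeing the data, Fer1l6 at -1.14 ± 0.34 (0.0367) and Bcas1 at -0.67 ± 0.21 (0.0432) were lower (7.21% of all genes), while Zg16 (0.0550) and Tff3 (0.0801) did not pass. Within the libraries above that level 6 members were higher in vehicle (Agr2, Slc12a8, Spdef, Galnt3, Galnt12 and Foxa3; 7.89% of all genes) and none lower (2.11%), and within those below it 9 were lower, including Clca1, Fcgbp and Fer1l6 (15.4% of all genes), and none higher (0.774%), with only 3 vehicle and 2 sham libraries. Zg16 had a negative difference in both, -0.60 above, where it did not pass (limma adjusted p 0.0962), and -0.85 below. Other members were negative in both too, Tff3, Clca1, Fcgbp and Fer1l6 among them. Of 31 members 10 were negative above that level and 27 below it.

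The slope on Hoxb13 itself differed between vehicle and sham in 7 members, all more positive in vehicle (Agr2, Galnt3, Galnt12, Spink4, Sytl2, Gfi1 and Foxa3). This was 22.6% of the members and 24.5% of all genes. For Agr2 the slope was 0.31 in vehicle and -0.21 in sham, a difference of 0.53 ± 0.16 with a limma adjusted p of 0.0278. After median-ratio scaling only Galnt3 still passed, where 2.26% of all genes did.

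The comparison of ISM012-042 with vehicle asks whether the compound moved these genes in colitis. No member passed in either direction, and neither did any of the 14129 genes (0% of all genes). Of the members 29 of 31 were higher with ISM012-042, but so were 92.1% of all genes, and the medians were 0.29 and 0.30. After median-ratio scaling, which brought the median of all genes to 0.005, 13 members were higher and 18 lower. The smallest adjusted p belonged to Ern2, which was 26.3 to 56.6 TPM with ISM012-042 (median 37.0) and 7.26 to 37.2 TPM with vehicle (median 25.3). All 6 ISM012-042 libraries were above the vehicle median and the groups overlapped. Its difference was 0.90 ± 0.32, with an unadjusted p of 0.0123 and a limma adjusted p of 0.233.

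At an unadjusted limma p under 0.05, 2 of 31 members were higher and 0 lower, against 2670 and 18 of all 14129 genes. Besides Ern2, the member under that level was Bcas1. It was 30.8 to 78.7 TPM with ISM012-042 (median 58.8) and 22.5 to 66.7 TPM with vehicle (median 31.5), a difference of 0.66 ± 0.27 with a limma adjusted p of 0.245. For the members that fell in vehicle, Zg16 was 6150 to 14642 TPM with ISM012-042 (median 7790, against 7812 with vehicle), Tff3 1491 to 3619 TPM (median 2169) and Fer1l6 11.9 to 33.9 TPM (median 17.9). All 3 genes overlapped between ISM012-042 and vehicle. Their differences from vehicle were 0.33 ± 0.21, 0.20 ± 0.24 and 0.54 ± 0.36, none past the threshold. Clca1 was 451 to 5168 TPM with ISM012-042, all within the vehicle range, a difference of 0.82 ± 0.82. Muc2 at 0.18 ± 0.37, Spdef at 0.02 ± 0.35 and Galnt3 at 0.12 ± 0.33 were close to 0 with wide errors.

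The comparison of ISM012-042 with sham shares the sham libraries with the first comparison and the ISM012-042 libraries with the second. Again no member passed, while 0.545% of all genes were higher and 0.871% lower. At an unadjusted limma p under 0.05, 6 of 31 members were higher and 2 lower, against 2309 and 628 of all 14129 genes. Slc12a8 came nearest: it was 38.9 to 99.6 TPM with ISM012-042 (median 49.4) and 15.2 to 42.6 TPM in sham (median 26.8). Only ISM012-042 replicate 2 was within the sham range. The difference was 0.95 ± 0.28, 1.93-fold, with a limma adjusted p of 0.0975. Spdef was 42.5 to 160 TPM with ISM012-042 (median 72.7) and 26.2 to 58.9 TPM in sham, a difference of 0.96 ± 0.35 (0.155).

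Atoh1, at 32.4 to 66.9 TPM with ISM012-042 and 22.3 to 38.6 TPM in sham, differed by 0.60 ± 0.22 (limma adjusted p 0.161), and Galnt12 by 0.68 ± 0.24 (0.146). In Slc12a8, Spdef, Atoh1 and Creb3l4 the same 5 of 6 ISM012-042 libraries were above every sham library, replicate 2 being the exception; 4 of 31 members had at least 4 libraries there, or 12.9%, against 25.5% of all genes. Tff3 was below the sham median in all 6 ISM012-042 libraries, with a difference of -0.66 ± 0.24 (0.160), and Clca1 likewise, at -1.76 ± 0.82 (0.235). With the pan-epithelial score as a covariate 7 members were higher (Agr2, Slc12a8, Galnt3, Creb3l4, Galnt12, Atoh1 and Ern2), but so were 28.0% of all genes. Among the other lists the stress factor Ddit3 fell with ISM012-042 relative to sham, by 0.69 ± 0.17 (0.0475), as did Aqp8, by 3.10 ± 0.73 (0.0418), and Car4, a carbonic anhydrase of surface colonocytes, by 1.38 ± 0.24 (0.00610).

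**Figure D5:**
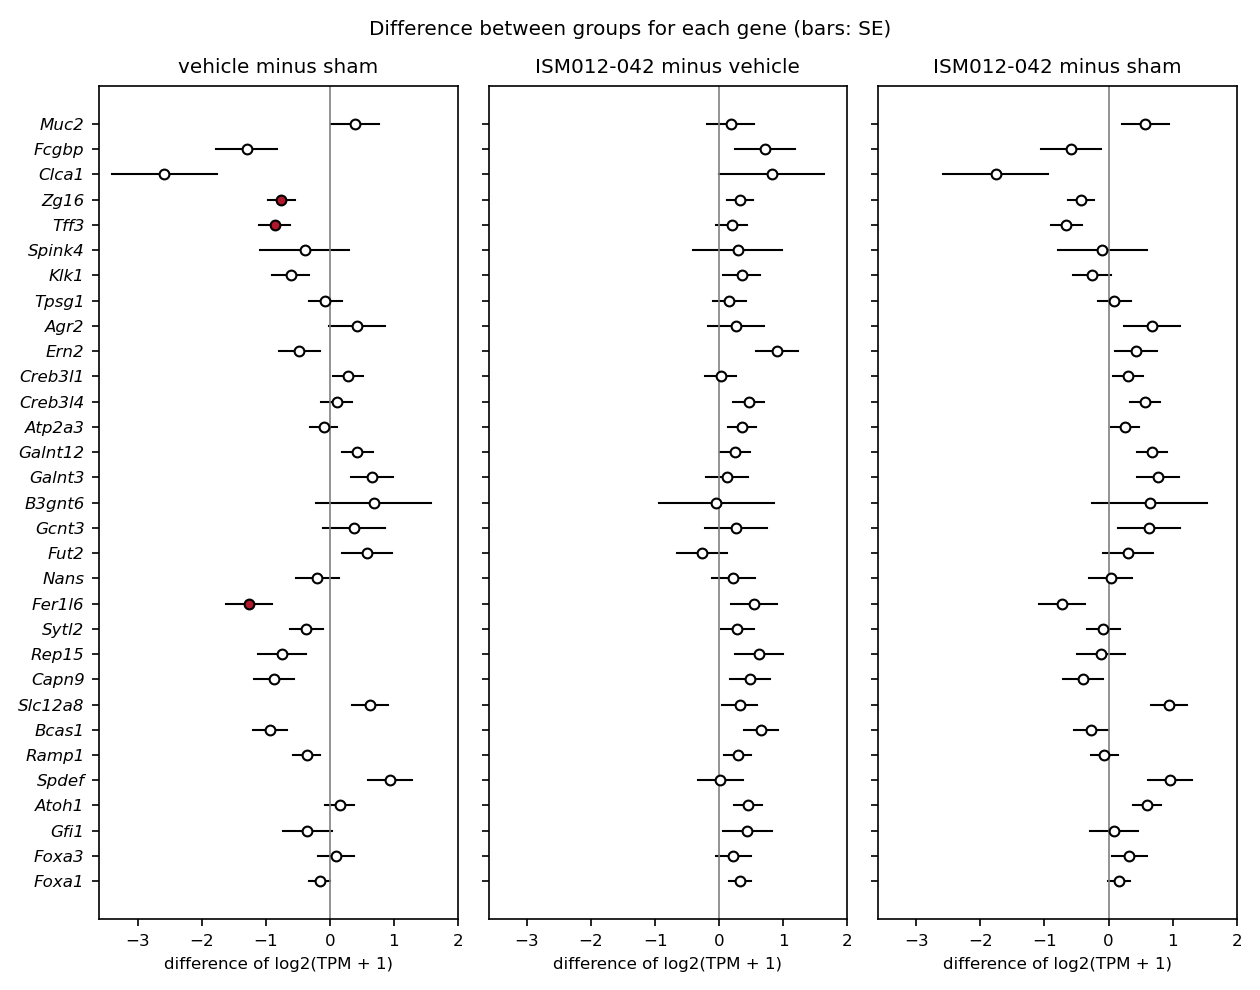
Difference of log2(TPM + 1) for each tested member (points, with SE bars) in vehicle minus sham, ISM012-042 minus vehicle and ISM012-042 minus sham, 6 libraries per group. Filled points have a limma adjusted p under 0.05, and these are Zg16, Tff3 and Fer1l6 in vehicle minus sham; in ISM012-042 minus vehicle 29 of 31 points lie right of 0, as 92.1% of all genes do.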

How the data were processed

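Total RNA of mouse colon was purified on RNeasy columns and reverse transcribed, per the labels' protocols. The authors deposited TPM per gene symbol; the submitters' processing notes name DRAGEN 4.0.3 and mm10 without their roles. How reads were counted, on which annotation and whether by strand was not given in the sources used here. TPM keeps no depth, so no count model was used. Groups came from the treatment labels and sample titles. Values were analysed as log2(TPM + 1) in limma 3.58.1 (R 4.3.3), with 18 libraries in 1 fit, trended robust empirical Bayes and Benjamini-Hochberg adjustment over 14129 genes at 0.05. The steps were tested on simulated data. Noise there was drawn separately for each gene, so variation shared by many genes was not covered. Replicate numbers did not pair the samples. The pan-epithelial score is the mean log2(TPM + 1) of 9 epithelial genes. The members and lists were chosen with earlier results of these data known. All members are named, with up to 4 passing genes of each other list and 9 fixed genes. Coordinates and promoters are RefSeq's, for GRCm38.p6; overlapping genes are from GENCODE vM21. Alternatives were other pseudocounts, filters, scalings and fits, covariates and leaving out libraries. The Hoxb13 splits, its slopes by group and 2 joint covariate fits were added after seeing the data. The counts of libraries beyond the sham range were not planned.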

Additional observations from a re-analysis of the deposited data

Results flagged for a closer look

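In 3 of 93 sets of 6 libraries, 1 for each tested member and group, a single value stood far from the other 5. Chance flags about 1 in 20 such sets. Zg16 was 3997 TPM in vehicle replicate 5, the lowest of its group, with the next at 6451 TPM; this library also had the lowest members' share of all TPM, 0.982%, and the highest mitochondrial share, 57.8%. Fut2 was 226 TPM in ISM012-042 replicate 1, with the next at 115.6 TPM. Fut2 was 198.1 TPM in sham replicate 3, with the next at 92.83 TPM. Vehicle replicate 1, which lay apart from its group in Clca1 and Fcgbp, is not among these values.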

How the results depend on the processing

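Of the 3 members lower in vehicle than in sham, Zg16 passed in 16 of 33 alternatives, Fer1l6 in 11 and Tff3 in 9, and all kept their direction in every one. The count of members lower was 1 with a pseudocount of 5 (4.01% of all genes), with only the groups compared (2.18%) and with plain empirical Bayes (4.11%). It was 0 without a filter (1.97%) and within the libraries above a log2 Hoxb13 of 5 (2.11%). It was also 0 with Hoxb13 (3.20%), the pan-epithelial score (1.90%) or both (3.64%) as covariates. It was 2 with median-ratio scaling and Hoxb13 together (7.21%) and 5 without mitochondrial genes (6.04%). With median-ratio scaling it was 6 (6.80%), and within the libraries below that level 9 (15.4%). Leaving out 1 library gave 0 to 7 (2.23 to 6.27% of all genes). Members higher in vehicle than in sham numbered 1 with median-ratio scaling (3.67% of all genes) and 2 with the pan-epithelial score (4.30%). They numbered 4 with both covariates (10.5%) and 6 above the Hoxb13 level (7.89%). Without 1 library there were 0 to 1, the 1 being Spdef without vehicle replicate 3 (0.234%). In ISM012-042 against sham, the members higher were 1 without mitochondrial genes (4.87% of all genes). They were 7 with the pan-epithelial score (28.0%) and 8 with both covariates (36.5%). The members lower were 2 with median-ratio scaling (4.36%) and 1 without mitochondrial genes (2.66%). There was also 1 below the Hoxb13 level (1.35%), with scaling and Hoxb13 together (5.34%), and with both covariates (2.98%). Leaving out 1 library gave 0 for each direction. No alternative moved the counts of 0 in ISM012-042 against vehicle. With median-ratio scaling 2 Hoxb13 slopes were positive and 8 negative (9.04% and 9.10% of all genes). Without mitochondrial genes the counts were 2 and 5, with the replicate block 4 and 2, and with the pan-epithelial score 3 and 3. Plain empirical Bayes gave 2 negative ones. Outside median-ratio scaling the shares of all genes for these slopes are not given here. Leaving out 1 library gave 4 to 10 positive and 1 to 4 negative. The cause was not tested.

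The replicate numbers did not pair the samples: same-numbered samples correlated by -0.38 to 0.61, over 0.1 in 6 of 18 pairs, and 4 of 18 samples correlated best with their own number. With the replicate block 2 members were lower in vehicle than in sham (3.48% of all genes). Over all genes in that comparison, 4.46% passed, against 10.5% with median-ratio scaling, 8.73% without mitochondrial genes, 2.09% without a filter and 2.56% with only the groups compared; in ISM012-042 against sham 1.42% passed, against 5.33%, 7.52%, 0.618% and 5.02%. TPM hides depth, so the precision of low members such as Gfi1 and B3gnt6 is known only from the spread between libraries.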

Other observations

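The proportions among the secreted proteins were compared within libraries. Zg16 relative to Muc2, as a ratio of TPM within each library, was 2.59 to 9.54 with ISM012-042 (median 6.66), 3.26 to 8.51 with vehicle (median 5.84) and 5.04 to 24.5 in sham (median 14.8). Tff3 relative to Muc2 was 0.575 to 3.16 with ISM012-042 (median 1.60), 0.863 to 3.85 with vehicle (median 1.48) and 1.23 to 10.3 in sham (median 4.78). Clca1 relative to Muc2 was 0.315 to 4.51 with ISM012-042 (median 1.64), 0.183 to 11.2 with vehicle (median 0.567) and 4.01 to 15.5 in sham (median 4.78). These ratios do not depend on the library total, and they were not tested. In sham the lowest Zg16 to Muc2 ratios, 5.04 and 5.18, were those of replicates 6 and 1, the 2 sham libraries with low Hoxb13.

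B3gnt6, Retnlb and Muc2 were high in the same sham libraries. B3gnt6 was 26.9 and 27.3 TPM in sham replicates 1 and 6 and 0.212 to 5.25 TPM in the other 4, Retnlb was 4177 and 2777 TPM there and 60.8 to 546 TPM elsewhere, and Muc2 was 2213 and 1951 TPM there and 443 to 862 TPM elsewhere. These libraries had 16.1 and 9.05 TPM of Hoxb13, against 218 to 288 TPM in the other 4. They were singled out after their values were seen.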
